A study of Mus musculus with 22 samples.

Results

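The genes described here encode nuclear subunits of the mitochondrial respiratory chain: complexes I to IV, cytochrome c and the ATP synthase, which is counted as complex V. They were chosen by name, as the genes of the 5 complexes and cytochrome c that a probe set of 1 gene symbol reads. The rule itself used no measured value, but earlier results of these data were known when it was set. Assembly factors and the muscle and heart isoforms Cox6a2, Cox7a1 and Cox8b were not counted as members. There were 72 such genes, read by 133 probe sets, of 15964 named genes and 36701 probe sets in all. Complex I contributed 32 genes, complex II 4, complex III 8, cytochrome c 1 (Cycs), complex IV 13 and complex V 14. Where a gene had several probe sets, the one brightest on average (log2 scale) stands for it, and 70 of the 72 passed a filter on dim probe sets, which had to reach 150 in scaled signal on 2 or more arrays. Ndufc2 and Cox8a did not pass: Ndufc2 read 86.1 to 218 and Cox8a 12.7 to 204 over the 8 samples. A further 16 probe sets that carry several symbols were left out, and with them genes read in no other way, such as Cox7c, Ndufa11, Ndufb4, Ndufs5 and Ndufs6. No gene of the mitochondrial genome itself was found under its listed name, so every value below concerns a nuclear gene.

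Total RNA of mammary tumours and of normal mammary glands was hybridised to Affymetrix MG-U74v2 arrays, which cover mouse transcripts on 3 chip types (A, B and C). The tumours were induced by a Her2/Neu transgene (Her2/Neu is the receptor ErbB2) and were labelled either PEA3-null (2 RNA samples) or wild type for PEA3 (3 samples). PEA3, the product of Etv4, is an ETS transcription factor. The third group was normal gland of FVB mice (3 samples). The promoter that drives the transgene, the strain of the tumour mice and the ages are not given in the sources used here. The tumour RNA was described as pooled and the normal samples were titled as pools, so the spread between samples may be that of repeat preparations rather than of animals. All groups were described as sorted for the surface marker Sca-1, with an estimated purity of 80%. Chip A read 59 of the 72 genes and chip B 3. The other 10 were read best by chip C, where only 1 PEA3-null sample was run. Their main probe sets therefore have no test for PEA3-null tumours. Dimmer chip A probe sets of Ndufs1, Ndufs4, Cox6b2, Atp5g2 and Atp5j2 were tested there but are not in the counts.

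The respiratory chain passes electrons from NADH, through complex I, and from succinate, through complex II, to ubiquinone, then through complex III and cytochrome c to oxygen at complex IV. Complexes I, III and IV pump protons across the inner mitochondrial membrane, and complex V uses the gradient to make ATP. Complex II is also an enzyme of the citric acid cycle, and it is the complex whose subunits are all nuclear. Skeletal muscle and brown fat are known for high contents of these proteins, and a mammary gland holds a fat pad beside its epithelium.

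Several measures moved with the groups. Skeletal muscle markers (6 of 8 on chips A and B) summed to 164951 to 169138 in normal glands, 604 to 812 in wild-type tumours and 764 and 3332 in the samples labelled PEA3-null. White adipocyte markers (6 of 8) summed to 52265 to 55683, 1488 to 2086 and 2197 to 2487. Fibroblast markers (7 of 7) summed to between 39842 and 41637 in normal glands and between 3841 and 5962 in the tumours. Luminal epithelial markers (5 of 8) summed to 6413 to 7862 in normal glands and 27585 to 33947 in the tumours. Within that luminal sum Krt19 went the other way, with means of 2093 in normal glands, 17.1 in wild-type tumours and 186 in null tumours. Brown adipocyte markers (6 of 7) summed to 9612 to 10322 and 1403 to 2492, and endothelial markers (4 of 5) to 2336 to 3077 and 207 to 544. Most of the brown sum in normal glands came from Cidea (mean 4414) and Cox8b (4066), the latter also a muscle and heart isoform. Ucp1 (276 in normal glands, 178 in wild-type tumours) and Ppara (191 and 194) did not pass, and Elovl3 read under 150 throughout. Of the 6 muscle markers, 3 read under 150 in all wild-type tumours and 1 in both null tumours. Muscle and fat genes thus read high in normal glands that the labels describe as sorted. The 3′ to 5′ signal ratio of the Gapdh control is a measure of RNA integrity. It was 2.58 to 6.08 on the normal arrays and 0.910 to 1.25 on the tumour arrays. The same ratio of the actin control overlapped, at 1.278 to 2.144 on the normal arrays and 1.138 to 1.665 on the tumour arrays. On chip B alone the actin ratios lay apart, from 1.519 in normal glands and up to 1.495 in tumours. No normal array shared a scan day with a tumour array, so the day of scanning cannot be told apart from the tissue. Neither Etv4 probe set was called between the samples labelled PEA3-null and the wild-type tumours. The first gave 394 ± 167 (SD, n = 2) against 380 ± 34.6 (SD, n = 3) in wild-type tumours. The other was lower in mean, at 602 ± 186 against 750 ± 332. Their log2 differences were -0.01 and -0.22 (adjusted p 0.998 and 0.875 by limma). The deleted part of the gene is not given in the sources used here, so these probe sets check nothing about the label. Null tumour below means a sample labelled PEA3-null.

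In wild-type tumours against normal glands, the subunit genes moved in both directions, and the complexes had medians from -1.14 (complex II) to 0.24 (complex V). Of the 70 genes tested, 27 passed an adjusted p of 0.05 (limma with Benjamini-Hochberg adjustment over all 28242 tested probe sets): 9 rose and 18 fell. That is 38.6% of the members, against 26.8% of the 13877 genes of the series read in the same way (20.8% of all probe sets). By complex, 38.7% passed in complex I, 100% in II, 50% in III, 16.7% in IV and 28.6% in V. The share that rose, 12.9%, lay beside 13% in the series, and the share that fell, 25.7%, beside 13.8%. The median difference over the 70 genes was -0.18 on the log2 scale, against -0.00 over the 13877 genes and 0.05 over all tested probe sets. Tumour and normal samples did not overlap for 19 genes that lay higher and 27 that lay lower in tumours, where 23.8% and 24.8% of the genes of the series lay apart in these directions. In these bulk samples, fewer cells of a type and less RNA per cell cannot be told apart.

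**Figure D1:**
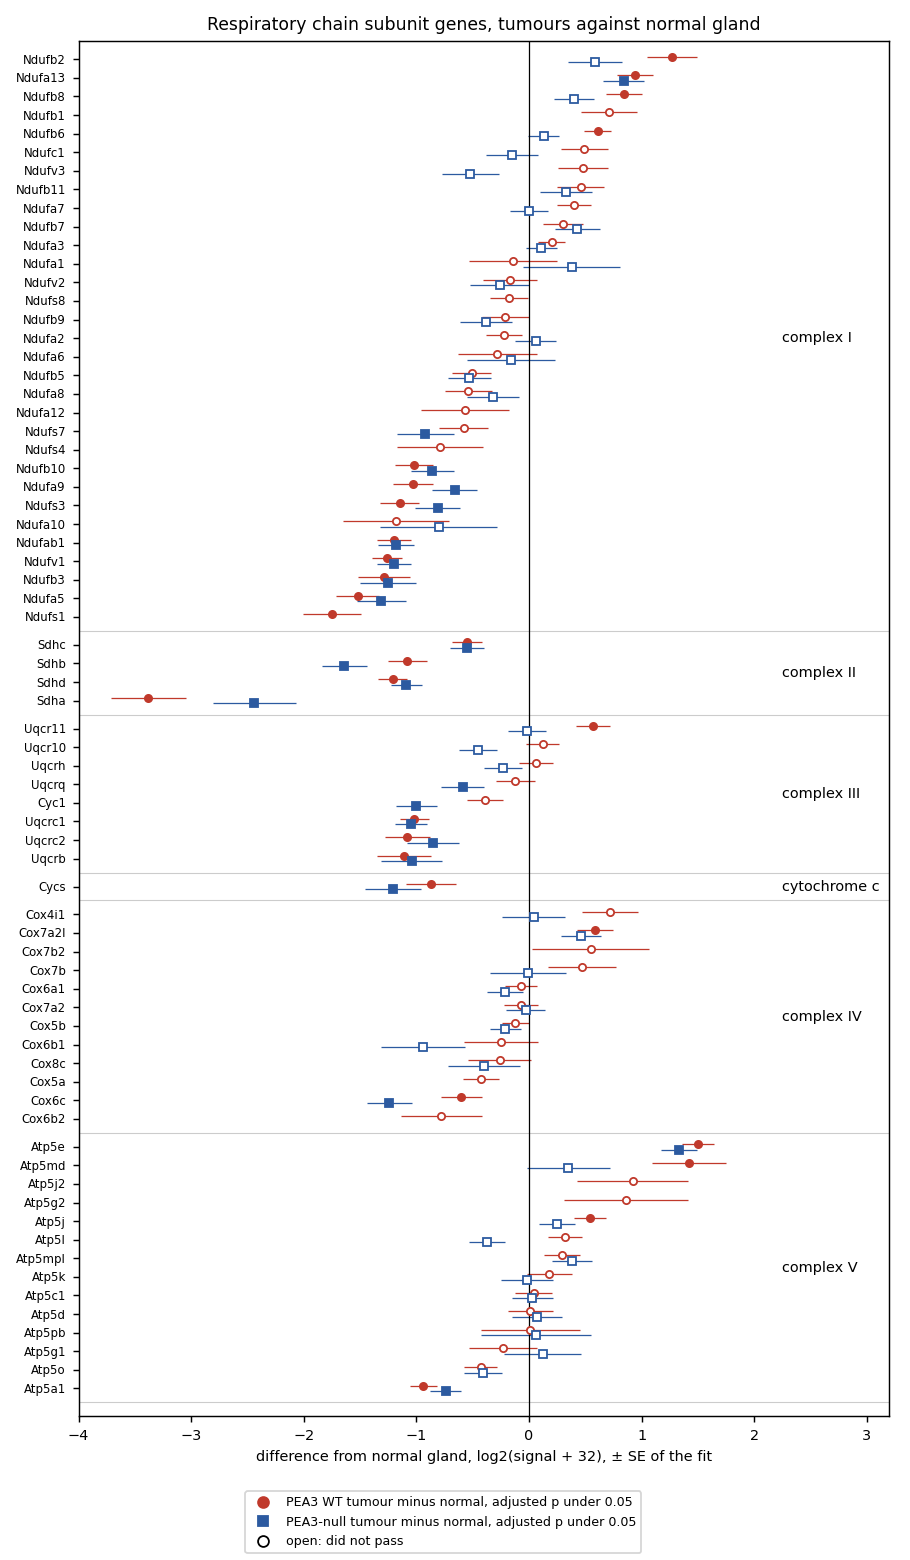
Log2 difference of each tested subunit gene from normal gland (x axis, log2 of scaled signal plus 32, bars are the SE of the fit), in wild-type tumours (red circles) and PEA3-null tumours (blue squares), with genes grouped by complex. Filled symbols passed an adjusted p of 0.05: all 4 complex II genes are filled on the left in both tumours, and Atp5e lies furthest to the right, at 1.5 and 1.33.

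Complex II fell as a whole. Its 4 genes all passed the test, with a median of -1.14, and in each of them the tumour samples did not overlap the normal samples. Sdha, the flavoprotein that oxidises succinate, read 957, 1181 and 1085 in the 3 normal glands and 120, 36.2 and 81.4 in the 3 wild-type tumours. All 3 tumour values lay under the signal minimum of 150, so the size of the fall is poorly determined. The fitted difference was -3.38 ± 0.33 (SE), 10.4-fold, with an adjusted p of 2.01e-05 by limma.

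Sdhb, the iron-sulfur subunit that hands electrons from Sdha towards ubiquinone, read 6932, 6438 and 6882 in normal glands and 3393, 3362 and 2785 in wild-type tumours. It fell 2.12-fold (-1.08 ± 0.17, adjusted p 0.000533 by limma), and its other probe set, on chip A, gave -1.41 with an adjusted p of 1.51e-05. Sdhd, one of the membrane anchors that bind ubiquinone, read 9561, 8135 and 8008 against 3553, 3976 and 3479. The highest tumour value of Sdhd was less than the lowest normal value, and the difference was -1.21 ± 0.13 (adjusted p 3.56e-05 by limma). A second, dimmer Sdhd probe set gave -0.08 with an adjusted p of 0.965. Sdhc, the other anchor, had the smallest difference of the complex at -0.55 ± 0.13 (adjusted p 0.012 by limma), and its second probe set read 0.05, so its fall rests on 1 of 2 probe sets.

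The RefSeq sequence (GRCm38.p6) of the 250 bases before the annotated start is shown for Sdha and Sdhd, which hold letters of the NRF1 motif there. The window of Sdhb holds none, and Sdhc was not searched. Both are on the minus strand, Sdha at chr13:74350241-74350490 and Sdhd at chr9:50603850-50604099, and both are written 5′ to 3′ in the direction of the gene. Capitals mark the NRF1 motif, found 3 times for Sdha and 1 time for Sdhd, and the GABPA motif CCGGAAG, read here as its reverse complement, found 1 time for Sdhd.
Sdha: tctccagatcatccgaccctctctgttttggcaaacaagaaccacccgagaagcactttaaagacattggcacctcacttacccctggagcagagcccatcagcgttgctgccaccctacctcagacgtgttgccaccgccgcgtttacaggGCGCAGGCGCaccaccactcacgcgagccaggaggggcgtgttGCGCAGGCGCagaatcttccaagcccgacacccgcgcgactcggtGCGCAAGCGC
Sdhd: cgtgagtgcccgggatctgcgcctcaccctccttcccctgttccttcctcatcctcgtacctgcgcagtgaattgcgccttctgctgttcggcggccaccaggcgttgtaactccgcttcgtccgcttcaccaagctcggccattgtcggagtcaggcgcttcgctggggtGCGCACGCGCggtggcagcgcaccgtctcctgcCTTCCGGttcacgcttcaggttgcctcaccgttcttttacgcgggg

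**Figure D2:**
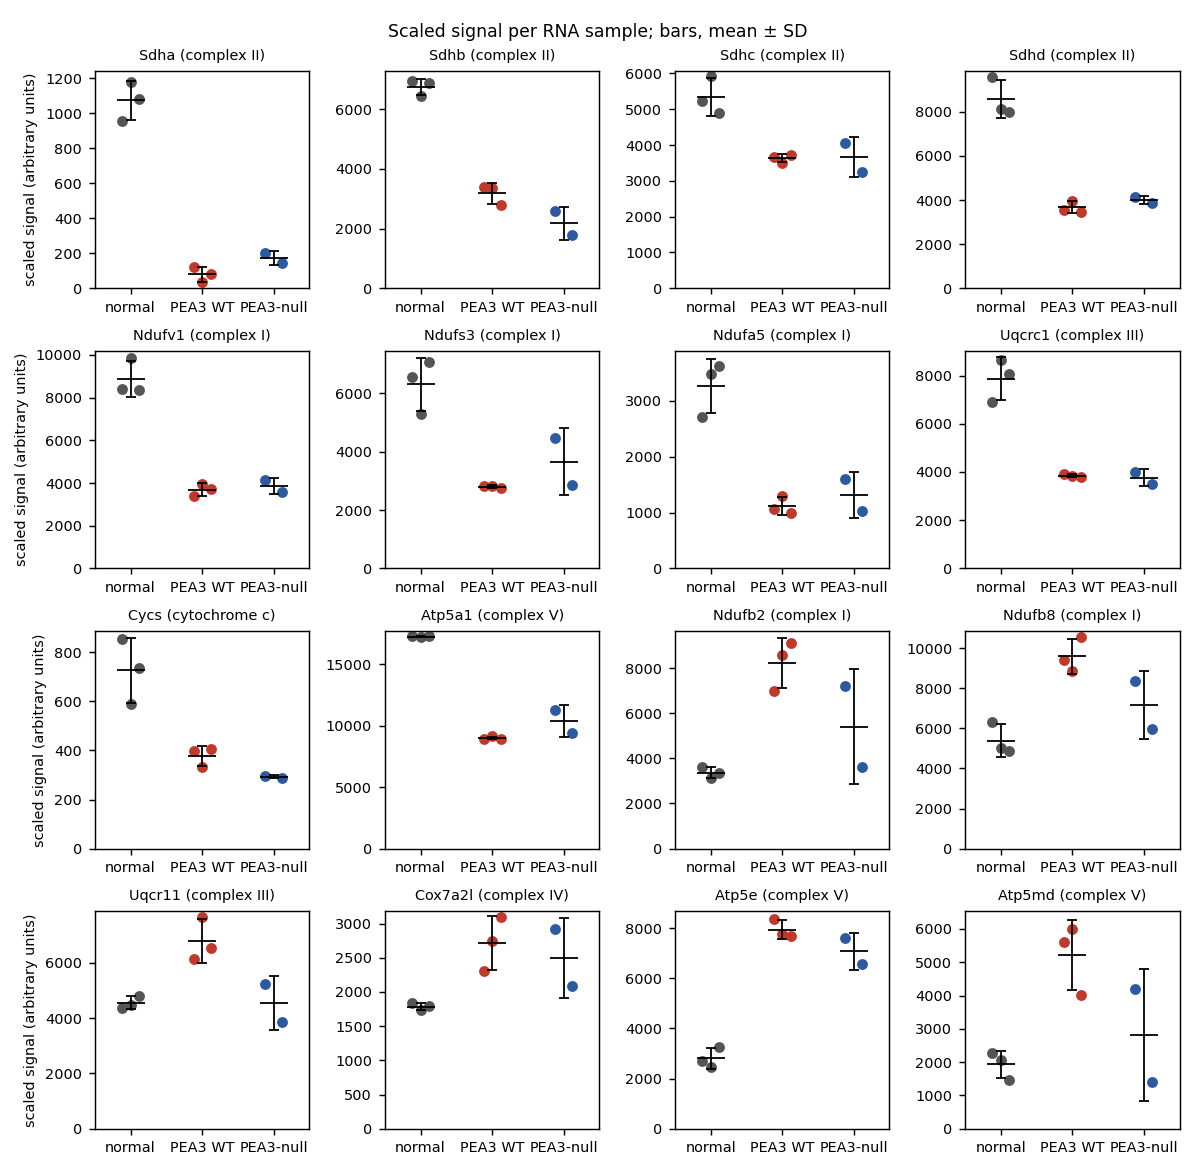
Scaled signal (y axis, arbitrary units, from 0) of 16 subunit genes in each RNA sample, with points for samples and bars for mean ± SD (3 normal glands, 3 wild-type tumours, 2 PEA3-null tumours). In the first 10 panels (Sdha to Atp5a1) all tumour samples lie below all normal samples. In the last 6 (Ndufb2 to Atp5md) the wild-type tumours lie above the normal glands, while the lower PEA3-null sample lies within the normal range for Ndufb2 and Ndufb8 and below it for Uqcr11 and Atp5md.

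Complex I had genes that fell and genes that rose. Of 31 genes tested, 8 fell and 4 rose, with a median of -0.22. The core subunits, which carry the flavin and the iron-sulfur clusters, were all on the negative side in wild-type tumours: 3 of 6 fell and none rose, with a median of -0.86. Among the 25 accessory subunits tested, which surround and stabilise that core, 5 fell, 4 rose and 16 did not pass.

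Ndufv1, the core subunit that binds NADH, read 8401, 9872 and 8372 in normal glands and 3389, 3972 and 3708 in wild-type tumours. Every tumour value was under the lowest normal value. The fall was 2.39-fold (-1.26 ± 0.13, adjusted p 3.39e-05 by limma). Ndufs1, the largest iron-sulfur subunit, was read best on chip C, with 4100, 3890 and 2903 in normal glands and 952 and 1141 in the 2 wild-type tumours run there (-1.75 ± 0.26, adjusted p 0.00123). A second Ndufs1 probe set, on chip A, where all 8 samples were run, gave -2.04 (adjusted p 1.51e-05). Ndufs3, a core subunit of the matrix arm, fell by 1.15 on the log2 scale, with tumour values of 2758 to 2835 against 5297 to 7065, while its dimmer chip B probe set gave 0.74 and did not pass.

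The core subunits that did not pass were Ndufs7 (-0.58 ± 0.22, adjusted p 0.0865 by limma), Ndufs8 (-0.18 ± 0.17) and Ndufv2 (-0.17 ± 0.24). Ndufs7 carries the cluster that reduces ubiquinone, and Ndufs8 and Ndufv2 carry other iron-sulfur clusters. For Ndufs8 the samples overlapped, at 17587 and 21752 in wild-type tumours and 20764 to 23057 in normal glands.

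Among the accessory subunits that fell, Ndufa5 gave the largest difference, with 2712, 3475 and 3613 in normal glands and 1060, 1301 and 992 in wild-type tumours (-1.52 ± 0.19, adjusted p 0.000154 by limma). Ndufb3, a membrane arm subunit, followed at -1.29 ± 0.23. Its normal values were uneven, at 5208, 2824 and 3095, and still all above the tumour values of 1304 to 1731. The other 3 were Ndufab1, the mitochondrial acyl carrier protein (-1.20), Ndufa9, at the joint of the 2 arms (-1.03), and Ndufb10, of the membrane arm (-1.02). Dimmer probe sets of Ndufab1 (0.04 and -0.44) and of Ndufa9 (0.13) did not pass.

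The 4 accessory subunits that rose were Ndufb2, Ndufa13, Ndufb8 and Ndufb6. Ndufb2, in the membrane arm, read 3630, 3140 and 3341 in normal glands and 7001, 8589 and 9101 in wild-type tumours, a 2.42-fold rise (1.27 ± 0.22, adjusted p 0.00126 by limma), and a second chip A probe set gave 1.31. Ndufa13, also known as GRIM-19, rose 1.92-fold, from 1321 to 1618 in normal glands to 2573 to 3212 in wild-type tumours. Ndufb8 rose by 0.84 ± 0.16 and Ndufb6 by 0.61 ± 0.12 on the log2 scale on chip A, while their other, dimmer probe sets on chip C read -0.06 and -1.28 and did not pass. The smallest difference of the complex was that of Ndufa1, at -0.14 ± 0.39, with tumour values of 111 to 307 around normal values of 197 to 252.

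In complex III, 3 of 8 genes fell and 1 rose. Uqcrc1 and Uqcrc2, the core proteins that face the matrix, and Uqcrb, a small subunit, fell. Uqcrc1 read 6893, 8655 and 8044 in normal glands and 3911, 3853 and 3794 in wild-type tumours (-1.02 ± 0.13, adjusted p 0.000153 by limma). Uqcrc2 fell 2.12-fold and Uqcrb 2.16-fold. Their groups did not overlap. Uqcr11, a small membrane subunit, went the other way, from 4369, 4473 and 4813 in normal glands to 6140, 7663 and 6537 (0.57 ± 0.15, adjusted p 0.0175 by limma). Uqcr10 (0.12), Uqcrh (0.06) and Uqcrq (-0.12), likewise small subunits, did not pass.

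The 2 cytochromes of this segment were both lower in level, and 1 of them passed. Cyc1, the cytochrome c1 of complex III, read 16906, 17021 and 14535 in normal glands and 11586, 12326 and 13008 in wild-type tumours. These groups did not overlap, but the difference of -0.39 ± 0.16 had an adjusted p of 0.113 by limma. Cycs, the mobile carrier between complexes III and IV, read 853, 588 and 736 against 396.5, 331 and 407 and fell 1.83-fold (-0.87 ± 0.22, adjusted p 0.0143 by limma).

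In complex IV, 1 of 12 genes rose, 1 fell and 10 did not pass, and the median was -0.10. The 12 include 3 testis isoforms (Cox6b2, Cox7b2 and Cox8c), none of which passed. Without them, 9 genes had a median of -0.07 and 7 did not pass. Cox7a2l, which takes part in joining complexes III and IV into supercomplexes, rose from 1834, 1734 and 1791 in normal glands to 2311, 2751 and 3096 (0.59 ± 0.16, adjusted p 0.023 by limma). Cox6c fell from 9146, 8277 and 8922 to 4916, 6121 and 6370 (-0.60 ± 0.18, adjusted p 0.0304). A dim probe set of Cox6c, at a mean of 96.3, went the opposite way (1.44, adjusted p 0.0423), so the direction of Cox6c depends on the probe set. Cox5a and Cox5b, subunits around the catalytic core, gave -0.43 and -0.12, Cox4i1 gave 0.72 with an adjusted p of 0.0566, and Cox6a1 gave -0.07, with tumour values of 18343 to 21507 inside the normal range of 18703 to 23868 but for 1 of them.

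Complex V stood on the positive side, with a median of 0.24 and 11 of 14 genes above 0; 3 rose, 1 fell and 10 did not pass. Atp5e, the epsilon subunit of the central stalk, read 2717, 2452 and 3280 in normal glands and 8384, 7788 and 7670 in wild-type tumours. The lowest tumour value was more than the highest normal value by a wide margin, and the rise was 2.82-fold (1.5 ± 0.14, adjusted p 1.44e-05 by limma). Atp5md, a small membrane subunit also called DAPIT, read 2261, 2071 and 1471 against 5601, 6010 and 4013 (1.42 ± 0.33, adjusted p 0.00906). Atp5j, the coupling factor of the peripheral stalk, rose 1.45-fold, from 2470 to 3304 in normal glands to 4168 to 4295.

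The one fall was that of Atp5a1, the alpha subunit of the catalytic head. Its signal was 17255, 17191 and 17269 in normal glands and 8919, 9123 and 8944 in wild-type tumours, a close grouping on both sides (-0.94 ± 0.12, adjusted p 0.000186 by limma). Atp5c1 (0.04 ± 0.16) and Atp5d (0.01 ± 0.20), the gamma and delta subunits, showed differences smaller than their errors, as did Atp5pb (0.01 ± 0.44) of the peripheral stalk. For Atp5d this depends on the probe set, since 2 dimmer chip A probe sets gave 1.15 and 0.76 and passed (adjusted p 0.00174 and 0.00395 by limma). Atp5g2, of the c ring, likewise gave 0.86 ± 0.55 on chip C without passing and 1.03 on chip A (adjusted p 0.000489). Alpha and epsilon subunits of the same head were thus 1.91-fold lower and 2.82-fold higher. Before the start of Atp5e, at chr2:174464102-174464351 on the minus strand of GRCm38.p6, the RefSeq sequence holds the GABPA letters 1 time (capitals) and none of the NRF1 letters.
Atp5e: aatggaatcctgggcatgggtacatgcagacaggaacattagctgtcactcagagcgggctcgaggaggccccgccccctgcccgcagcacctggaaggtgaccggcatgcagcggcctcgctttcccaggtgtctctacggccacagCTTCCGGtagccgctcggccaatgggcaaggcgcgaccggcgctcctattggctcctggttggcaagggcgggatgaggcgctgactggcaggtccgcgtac

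Some of these calls rest on probe sets whose name carries a letter for shared or dropped probes, among them those of Ndufa5, Ndufb2, Uqcrb, Uqcrc2, Cox6c, Atp5e and Atp5md. With plainly named probe sets alone, an alternative added after the data were seen, 20 of 52 genes passed, 6 higher and 14 lower. Over the genes that passed, 15 other probe sets of 12 genes were also tested: 8 had the same sign, 4 passed in the same direction and 1, that of Cox6c, passed in the opposite one. With the normal glands 1 and 2 left out, whose chip A wash is recorded as aborted, 15 genes passed, 5 higher and 10 lower. That fit has 1 normal sample, gland 3, whose variation is taken from the tumour groups and whose Gapdh ratio, 5.25 to 6.08, was the highest of the normal glands on each chip type. Leaving out any single sample gave 23 to 35. The part of the muscle and fat markers and of the Gapdh ratio in these differences was not tested.

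In tumours labelled PEA3-null, all 4 genes of complex II, 5 of 8 genes of complex III and Cycs fell. Complexes I and V had 1 gene each that rose. These counts take the brightest probe set of each gene. Of 60 genes tested on chips A and B, 22 passed: 2 rose and 20 fell (36.7%, against 28.8% of 10421 genes and 24.6% of 19275 probe sets in the series). The share that rose was 3.33%, beside 13.5% in the series, and the share that fell 33.3%, beside 15.3%. By complex, 34.6% passed in complex I, 100% in II, 62.5% in III, 11.1% in IV and 16.7% in V. The median was -0.29, against 0.02 over the 10421 genes and 0.08 over all tested probe sets. This comparison uses the same normal glands as the one above, so the lists are given side by side: 17 genes fell in both, 2 rose in both (Ndufa13 and Atp5e), 7 that rose in wild-type tumours did not pass here, and 3 fell here without passing there (Cyc1, Uqcrq and Ndufs7).

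Complex II again fell in all 4 genes, with a median of -1.36. Sdha read 200 and 145 in the null tumours (-2.44 ± 0.37, adjusted p 0.000536 by limma). Sdhb read 2576.5 and 1793, below each wild-type tumour too, and fell 3.11-fold (-1.64 ± 0.20, adjusted p 5.35e-05 by limma). This probe set is on chip B, where null and wild-type arrays were scanned on different days. The chip A probe set of Sdhb gave -1.57 against normal glands (adjusted p 1.77e-05 by limma). Between the genotypes it gave -0.15 (adjusted p 0.752 by limma). Sdhd read 4128 and 3867 (-1.09 ± 0.14), and Sdhc 4053 and 3260 (-0.55 ± 0.15, with a second probe set at 0.55 that did not pass).

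Complex III followed, with 5 of 8 genes lower, none higher and a median of -0.72. Cyc1 read 9804 and 6577, a 2.00-fold fall (-1.0 ± 0.18, adjusted p 0.0016 by limma). Uqcrc1 read 4005 and 3519 (-1.05 ± 0.14), and Uqcrb (-1.04), Uqcrc2 (-0.85) and Uqcrq (-0.59, adjusted p 0.0362) made up the rest. Uqcr11, which rose in wild-type tumours, read 5234 and 3844 here, 1 above and 1 below all normal glands (-0.02 ± 0.17). Cycs read 297 and 288 and fell 2.31-fold (-1.21 ± 0.25, adjusted p 0.00383).

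In complex I, 8 genes fell and 1 rose of 26. Ndufa5 (-1.31 ± 0.22), Ndufb3 (-1.25 ± 0.25) and Ndufv1 (-1.20 ± 0.15, adjusted p 0.000128 by limma) gave the largest falls, and Ndufv1 read 4127 and 3586, close to the wild-type tumours. Ndufa13 read 3099 and 2231 and rose 1.79-fold (0.84 ± 0.18, adjusted p 0.00569). Ndufb2, at 7204 and 3603, had 1 sample among the wild-type tumours and 1 among the normal glands (0.59 ± 0.24, adjusted p 0.0986 by limma). Its second chip A probe set gave 0.75 and passed (adjusted p 0.0294 by limma), so this call depends on the probe set. Ndufs3 fell (-0.81 ± 0.20), while its dimmer chip B probe set gave 1.31 and did not pass. Ndufa7, an accessory subunit, gave 0.00 ± 0.17. Ndufs1, outside these 26 genes, gave -1.84 with its chip A probe set (adjusted p 8.56e-05 by limma).

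In complex IV only Cox6c passed, at 4665 and 2910 (-1.24 ± 0.20, adjusted p 0.000734 by limma), again against a dim probe set at 0.95 that did not pass. Cox7b gave -0.01 ± 0.34, from samples at 3061 and 1100, on either side of the normal glands. In complex V, Atp5e read 7602 and 6565 and rose 2.51-fold (1.33 ± 0.16, adjusted p 9.15e-05 by limma). Atp5a1 read 11301 and 9424 and fell 1.67-fold (-0.74 ± 0.14). Atp5k, a small membrane subunit, gave -0.02 ± 0.23. For Atp5d, the main probe set gave 0.07 ± 0.22. Dimmer chip A probe sets of Atp5d gave 1.24 and 0.77 and passed (adjusted p 0.00208 and 0.00687 by limma), and a further one gave 0.06. Atp5g2, not among the 60 genes, gave 1.12 on chip A (adjusted p 0.000612 by limma). With gland 3 as the 1 normal sample, its variation again taken from the tumours, 9 of the 60 genes passed, 1 higher and 8 lower.

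The 2 null tumours did not read alike. Null tumour 2 was below null tumour 1 in 56 of the 60 genes (93.3%), against 48.2% of all tested probe sets on these chips. The median of the 60 genes against the normal mean was -0.11 in null tumour 1 and -0.60 in null tumour 2, while the wild-type tumours gave -0.17, -0.09 and -0.08. Null tumour 2 had the lower median in complexes I (0.12 and -0.66), II (-1.21 and -1.51), III (-0.38 and -1.02), IV (-0.08 and -0.33) and V (0.27 and -0.14). In the wild-type tumours the median of complex II was -1.12, -1.05 and -1.28. Skeletal muscle markers summed to 764 in null tumour 1 and 3332 in null tumour 2, white adipocyte markers to 2197 and 2487, and the part of other cell types in the gap was not tested.

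**Figure D3:**
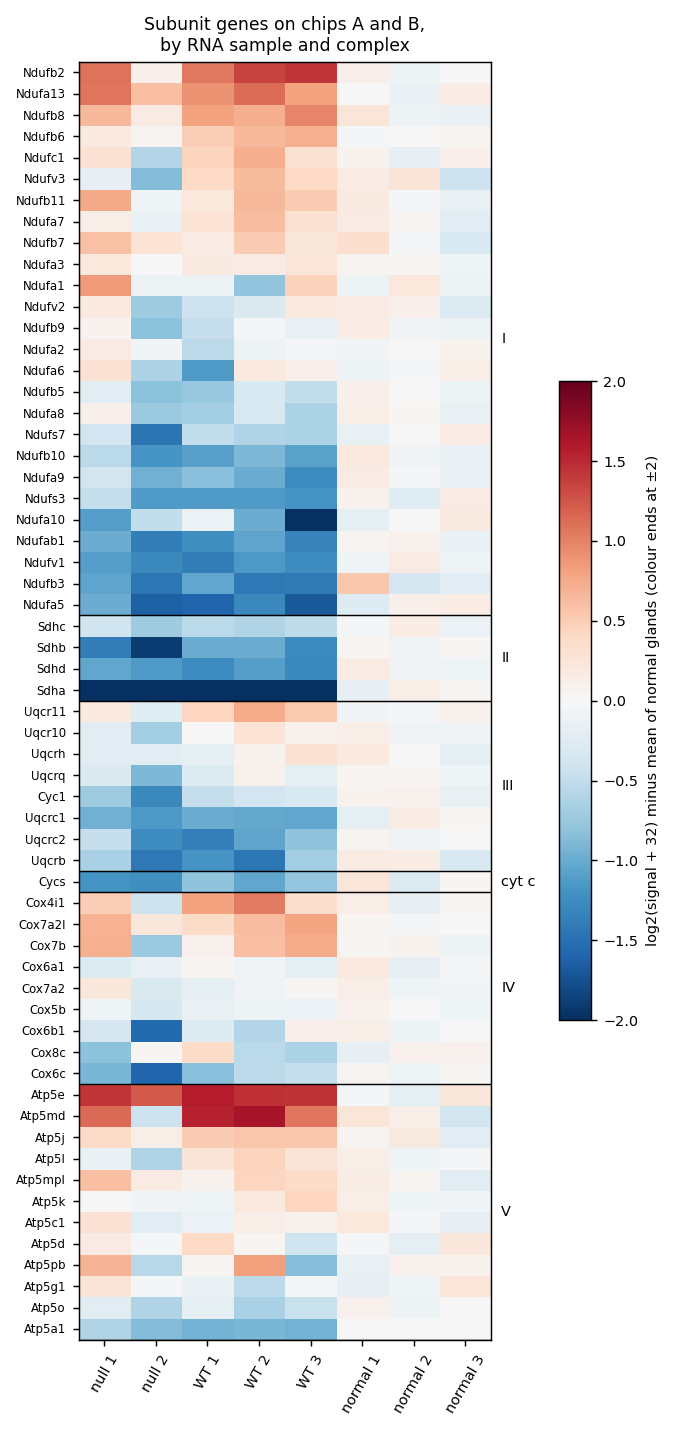
Log2 of scaled signal plus 32 minus the mean of the 3 normal glands (colour, from -2 in blue to 2 in red) for the 60 subunit genes of chips A and B, 1 row each, grouped by complex, in the 8 RNA samples (columns). The block of complex II is blue in all 5 tumour samples, and the column of null tumour 2 holds lower values than that of null tumour 1 in 56 of 60 rows.

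Which of the null samples is kept therefore decides some counts. Without null tumour 2, 19 genes passed against normal glands, 7 higher and 12 lower; without null tumour 1, 28 passed, 1 higher and 27 lower. Each fit then has 1 null sample, whose variation is taken from the remaining groups. With either sample alone and in the other alternative fits of the same probe sets, the genes always called were 8 of the 20 that fell, namely Ndufa5, Ndufab1, Ndufb3, Ndufv1, Sdhb, Sdhd, Uqcrc1 and Cox6c, and 1 of the 2 that rose, Atp5e. The choice of probe set is not covered by this count: dimmer probe sets of Ndufab1 (-0.27), Uqcrc1 (-0.78) and Cox6c (0.95) did not pass, and those of Ndufa5, Cox6c and Atp5e have no plain name.

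Between the tumour genotypes none of the 60 genes passed by limma, where 0.192% of all probe sets and 0.249% of all genes did. At an unadjusted p of 0.05, 16 genes were past the threshold, 15 lower and 1 higher in null tumours. That is 26.7%, against 11.2% of all genes and 10.5% of all probe sets. The lowest adjusted p by limma was 0.183, that of Atp5l, a membrane subunit of complex V. The median difference was -0.09, the range -1.07 to 0.94 and the median SE 0.20. Groups did not overlap for 4 genes higher and 16 lower in null tumours, where 11.1% and 12.5% of the genes of the series lay apart in these directions.

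The differences most on the negative side were those of Atp5md (-1.07 ± 0.37), Ndufv3 (-1.0 ± 0.25), Cox6b1 (-0.69 ± 0.37), Atp5l (-0.68 ± 0.16) and Cox4i1 (-0.68 ± 0.28), with Ndufb2 (-0.68 ± 0.24) next. A dimmer probe set of Atp5l read 1.18 and did not pass. Ndufv3, an accessory subunit of the NADH-binding arm, read 1376 and 832 in null tumours and 2046, 2418 and 2055 in wild-type tumours, with normal glands at 1148 to 1852; its adjusted p was 0.187 by limma. Atp5md read 4202 and 1401 in null tumours, the first within the wild-type range and the second below the normal glands. On the positive side were Sdha (0.94 ± 0.37), Ndufa1 (0.52 ± 0.43), Ndufa10 (0.38 ± 0.52), Ndufa9 (0.37 ± 0.20) and Atp5g1 (0.35 ± 0.34). Sdha was dim in all 5 tumour samples, at 36.2 to 200.

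Differences close to 0 between the genotypes were those of Sdhc (0.00 ± 0.15), Ndufb5 (-0.01 ± 0.19), Atp5c1 (-0.01 ± 0.18), Uqcrc1 (-0.04 ± 0.14) and Cox7a2 (0.04 ± 0.17). Cyc1 gave -0.61 ± 0.18 with an adjusted p of 0.251 by limma, and Cycs -0.33 ± 0.25. Null tumour 2 lay below every wild-type tumour for 38 of 60 genes and above every one for 4, whereas null tumour 1 lay below for 18 and above for 28. Without null tumour 1, 9 genes passed, all lower (Atp5md, Ndufv3, Cox7b, Ndufb2, Ndufc1, Cox6c, Atp5l, Cyc1 and Ndufs7), where 1.28% of 18849 probe sets passed; without null tumour 2, none passed and the median turned to 0.16. The chip A tumour arrays shared a scan day, and with these arrays alone none of 56 genes passed. On chip B the null arrays were scanned on other days than the wild-type arrays.

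**Figure D4:**
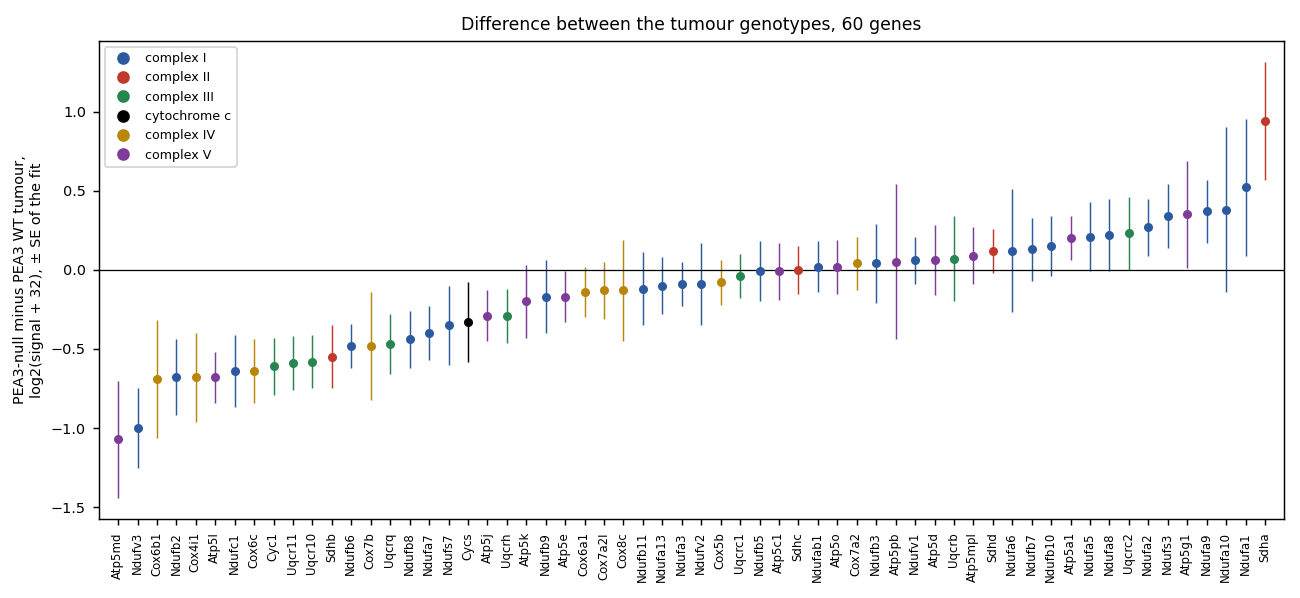
Difference between the tumour genotypes (y axis, PEA3-null minus wild type, log2 of scaled signal plus 32, bars are the SE of the fit) for 60 subunit genes in order of size, coloured by complex. Values run from -1.07 for Atp5md to 0.94 for Sdha, and none passed an adjusted p of 0.05.

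Other mitochondrial gene lists, fixed with earlier results of these data known, were read in the same way. The citric acid cycle feeds the chain and shares complex II with it. A list of its genes was lower in both tumours. Beside enzymes of the cycle, the list holds Pcx and the pyruvate dehydrogenase complex genes Pdha1, Pdhb, Dlat and Pdhx. The counts and medians below are those of the whole list. In wild-type tumours 14 of 18 genes fell (77.8%, median -1.52), in null tumours 14 of 17 (82.4%, median -1.53), and none rose. Of all genes, 13.8% fell in wild-type tumours and 15.3% in null tumours. Pyruvate carboxylase Pcx, not itself an enzyme of the cycle, fell most, with log2 differences of -4.15 in wild-type and -4.0 in null tumours. The oxoglutarate dehydrogenase Ogdh (-2.74 and -2.25), citrate synthase Cs (-2.59 and -2.47) and the succinate-CoA ligase subunit Sucla2 (-2.47 and -2.52) passed in both tumours as well. Dlat, of the pyruvate dehydrogenase complex, fell in null tumours (-2.57) and gave -1.83 in wild-type tumours with an adjusted p of 0.0546 by limma.

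The mitochondrial ribosome, which translates the subunits encoded in the mitochondrial genome, lay on the other side. Of 51 genes tested, 16 rose and 1 fell in wild-type tumours (33.3% called, against 26.8% of all genes, median 0.26). Of 47 tested, 13 rose and 1 fell in null tumours (29.8% called, against 28.8%, median 0.35). Among all genes, 13% rose in wild-type tumours and 13.5% in null tumours. Mrps12 rose by 1.97 and 1.47, Mrps6 by 1.93 and 1.65, and Mrpl32 by 1.57 and 1.09. Mrpl15 was the gene that fell in both, with log2 differences of -0.68 and -0.81.

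The 3 muscle and heart isoforms of complex IV all fell in both tumours. Cox6a2 gave log2 differences of -6.60 and -6.30, from a normal mean of 11342 to 99.6 in wild-type and 115 in null tumours, beside -0.07 and -0.21 for its counterpart Cox6a1. Cox8b gave -2.45 and -2.61. Cox7a1 gave -1.16 and -1.52, beside -0.07 and -0.03 for Cox7a2. Cox8b and Cox7a1 are also among the brown adipocyte markers, a list in which Ucp1, the uncoupling protein of brown fat, gave -0.58 and -0.41 and did not pass.

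Of the carriers and pore proteins of the mitochondrial membranes, 6 of 12 fell in wild-type and 6 of 11 in null tumours, and none rose. These shares were 50% and 54.5%, where 13.8% and 15.3% of all genes fell. Slc25a4, the adenine nucleotide carrier of muscle and heart, fell (-1.52 and -2.30), while Slc25a5, its counterpart in dividing cells, gave -0.10 and -0.22. The uncoupling protein Ucp3 fell as well (-2.23 and -2.69). The acylcarnitine carrier Slc25a20 gave -1.54 and -1.48 and passed in both.

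Of the assembly factors, 2 of 25 rose and 3 fell in wild-type tumours (20%, against 26.8% of all genes), and 1 of 19 rose and 2 fell in null tumours (15.8%, against 28.8%). Uqcc2, which helps to assemble complex III, rose by 1.31 and 0.95, and the ATP synthase factor Atpaf2 fell (-1.03 and -1.14). Its partner Atpaf1, on chip C, fell in wild-type tumours (-2.41). Among the nuclear regulators of mitochondrial genes, 1 of 12 rose and 3 fell in wild-type tumours (33.3%, against 26.8% of all genes). In null tumours 1 of 8 rose and 1 fell (25%, against 28.8%). Esrra, a nuclear receptor that acts on genes of oxidative metabolism, rose by 1.63 and 1.17. Yy1, a zinc finger factor, fell (-0.94 and -0.88). The mitochondrial RNA polymerase Polrmt fell in wild-type tumours (-1.29) and gave -0.60 in null tumours. None of these lists had a gene called between the tumour genotypes.

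**Figure D5:**
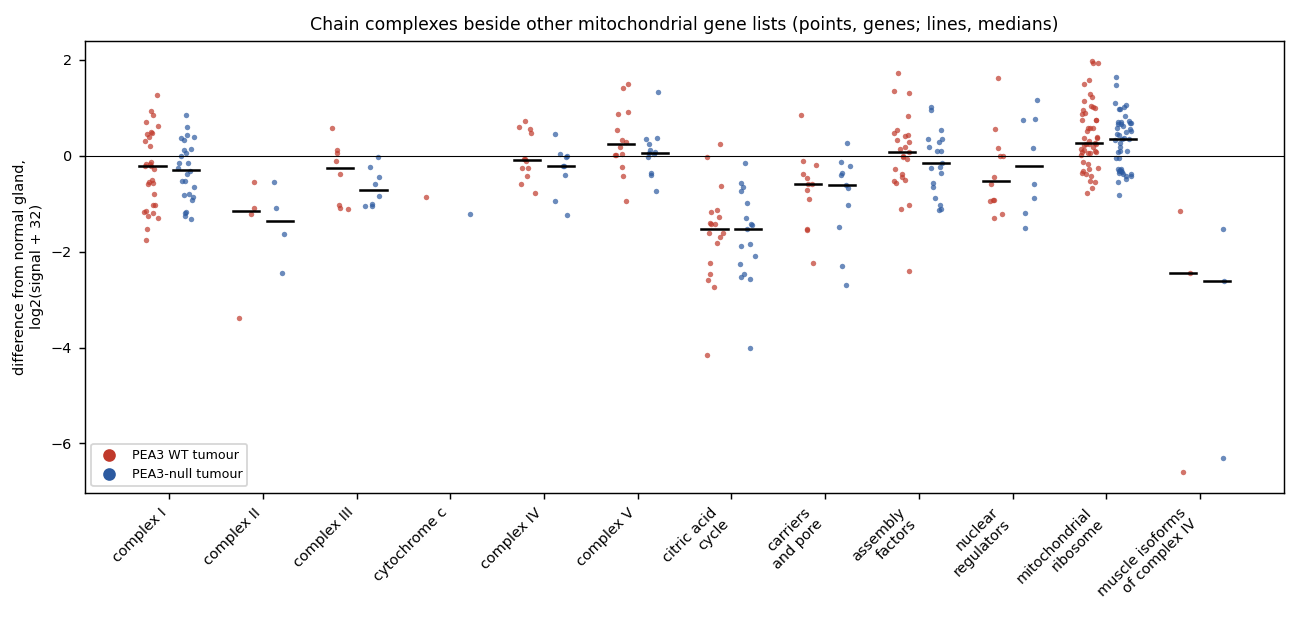
Log2 difference from normal gland (y axis, log2 of scaled signal plus 32) of the genes of each chain complex and of other mitochondrial gene lists (x axis), in wild-type (red) and PEA3-null (blue) tumours, with a point per gene and a line at the median. The medians of the citric acid cycle list, which includes Pcx and pyruvate dehydrogenase genes, lie at -1.52 and -1.53. Those of complex V lie at 0.24 and 0.06 and those of the mitochondrial ribosome at 0.26 and 0.35.

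Promoter letters were compared between the members and all genes. In the RefSeq windows of 250 bases before to 50 after the start, which matched 59 of the 72 genes in 64 windows, 3 motifs were searched on both strands: the NRF1 motif in capitals above, CCGGAAG (GABPA) and AAGATGGC (YY1). NRF1 and GABPA, for which motifs are named, are factors known to act on respiratory chain genes. No motif of another factor, such as the ETS factor PEA3, was searched, so the letters do not show which factor could bind them. NRF1 letters stood in 18.8% of the members' windows and in 4.6% of all 32851 windows, GABPA letters in 25% and 8.86%, and YY1 letters in 14.1% and 2.75%. Any of the 3 stood in 51.6% and 14.7%.

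Any of the 3 motifs stood in 61.5% of the windows of genes that fell in wild-type tumours and in 60% of those of genes that rose. The windows covered 12 of the 18 genes that fell, all 9 that rose and 36 of the 43 that did not pass. Of the genes that fell, Ndufs1, Sdhc, Uqcrb, Uqcrc2, Cox6c and Atp5a1 were not searched. NRF1 letters stood in 5 of 13 windows of genes that fell, those of Sdha, Sdhd, Uqcrc1 and, in 2 windows, Ndufa5. They stood in 0 of 10 windows of genes that rose and in 7 of 39 of genes that did not pass. GABPA letters stood in 3 of 13, 5 of 10 and 7 of 39 windows, and YY1 letters in 1, 2 and 6. The counts are small, no difference between them was tested, and a match of letters is not a binding site. Genes that fell were spread over 11 chromosomes and genes that rose over 8.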

How the data were processed

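The authors deposited 1 linear intensity per probe set and array, computed with MAS5 per the submitters' processing notes, which give no version. Other deposited files are instrument records, used for the days of scanning, lots of chips and washes alone. The 2% trimmed mean of an array was 1500.28 to 1501.06 as deposited and was brought to 500; after adding 32, log2 was taken, so fold changes of dim probe sets are understated. The files give no background per probe set, and the number of arrays limits the precision. Symbols came from the platform annotation, updated to RefSeq GRCm38.p6 by gene identifier (29044 of 36701 probe sets matched).

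Groups were taken from the labels. For each type of chip, 1 model held all 3 groups (limma 3.58.1, R 4.3.3; lmFit and eBayes, with the prior variance following mean signal; two-sided tests); Benjamini-Hochberg adjustment covered all tested probe sets of the chips that entered, 28242 on all chips or 19275 on chips A and B. The fits were tested on simulated arrays.

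The members, gene lists, markers, tests and alternatives were chosen with earlier results of these data known. Named genes are, per complex and comparison, up to 3 called genes with the largest difference, those against the majority, those of highest signal and smallest difference, both cytochrome c genes, the 5 largest differences each way between the genotypes, and up to 4 genes per other list; further members are named to account for all called genes. The alternatives concerned scaling, constant, filter, arrays fitted, variance model, replicate block, scan day, chip types, probe set choice, a fold minimum and samples left out.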

Additional observations from a re-analysis of the deposited data

How the results depend on the processing

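The number of genes called in wild-type tumours against normal glands stayed within 1.5 times of 27 under other scalings, constants, filters and variance models. It did so with other chip types and probe set choices as well. The mean over the probe sets of a gene kept their lowest adjusted p, however. No called gene could drop out of that count, so it shows nothing about probe set choice. Of 15 other probe sets tested for called genes, 4 passed in the same direction and 1 in the opposite one. An exception was the fold minimum: 17 genes also differed by at least 1 on the log2 scale. Another was the fit without normal glands 1 and 2, where 1 normal sample is left. In null tumours 13 genes passed with the fold minimum, and the fit without glands 1 and 2 was again an exception. Leaving out 1 sample in turn gave 23 to 35 genes in wild-type tumours, 19 to 28 in null tumours and 0 to 9 between the genotypes, the 9 coming without null tumour 1. The replicate block gave 26, 21 and 0 calls. Deviations of same-numbered samples from their group means correlated at -0.108 to 0.0655. With 2 or 3 samples a group these deviations constrain each other, so the correlations cannot settle whether the numbers pair the samples. In all alternative fits other than the choice of probe set, 4 of 9 rises and 10 of 18 falls in wild-type tumours were called, and none changed sign. The calls that turned sign did so with another probe set. In wild-type tumours the mean over probe sets gave -0.33 for Ndufb6, -0.08 for Uqcrh and 0.42 for Cox6c, and the dimmest probe set -1.28 for Ndufb6, -0.06 for Ndufb8, 0.05 for Sdhc, -0.24 for Uqcrh and 1.44 for Cox6c. Among further called genes, other probe sets gave 0.74 for Ndufs3, 0.13 for Ndufa9 and 0.04 for Ndufab1. In null tumours the mean gave 0.00 for Sdhc and the dimmest 0.55 for Sdhc and 0.95 for Cox6c, the other Ndufs3 probe set gave 1.31, and between the genotypes they gave 0.25 and 0.54 for Uqcrc1, 0.04 and 0.08 for Atp5c1 and 0.25 and 1.18 for Atp5l. The sign changes under the remaining alternatives were of named genes that were not called, and the cause was not tested. Adding 16 gave -0.00 for Atp5pb. Quantile normalization gave -0.06 for Uqcrh and -0.03 for Atp5pb in wild-type tumours, -0.12 for Ndufa7 and 0.04 for Atp5k in null tumours, and 0.01 for Ndufb5, 0.01 for Uqcrc1 and 0.02 for Atp5c1 between the genotypes. Median scaling gave -0.02 for Atp5pb, -0.07 for Ndufa7 and -0.03 for Sdhc in these comparisons, and array weights -0.02 for Atp5pb and -0.01 for Ndufa7. The replicate block gave -0.07 for Ndufa7, 0.03 for Cox7b and 0.03 for Atp5k in null tumours and -0.02 for Sdhc between the genotypes. Without normal glands 1 and 2, chosen after seeing the data, Atp5pb gave -0.06 in wild-type tumours, and Cox7b 0.09 and Atp5k 0.03 in null tumours. With 1 sample left out, values in wild-type tumours ran from -0.45 to 0.18 for Ndufa1, -0.06 to 0.18 for Uqcrh, -0.15 to 0.02 for Cox6a1 and -0.40 to 0.44 for Atp5pb. In null tumours they ran from -0.13 to 0.13 for Ndufa7, -0.24 to 0.20 for Uqcr11, -0.73 to 0.72 for Cox7b and -0.06 to 0.05 for Atp5k. Between the genotypes they ran from -0.30 to 0.28 for Ndufb5, -0.15 to 0.16 for Sdhc, -0.26 to 0.25 for Atp5c1, -0.24 to 0.92 for Ndufa10, -0.22 to 0.30 for Cox7a2 and -0.13 to 0.06 for Uqcrc1. Over the genes named, 1598 values kept their direction and side of the threshold, 63 fell short of it, 11 came past it and 65 changed sign. Sdha in tumours lies near the signal minimum, which limits the size of its fall.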
